A study of Mus musculus with 5 samples.

Results

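Fabp4, the adipocyte and macrophage fatty acid binding protein gene, was followed together with 9 other genes of fatty acid transport, lipid droplets and fatty acid oxidation in 5 libraries of BV-2 cells. The set was defined by gene symbol as Fabp4, Fabp5, Cd36, Lpl, Pparg, Plin2, Plin3, Hilpda, Cpt1a and Acadl, and all 10 were found among the 40879 symbols of each count file. BV-2 is a mouse microglial line immortalised with a retrovirus carrying oncogenes, and no primary cells were included. One group was exposed to urban particulate matter (UPM) at 50 µg/mL for 23 h. In 3 further groups the same exposure followed 1 h of pretreatment with the antidepressant drug trazodone (TZ) at 1.25, 2.5 or 5 µg/mL, written here as UPM+TZ 1.25, UPM+TZ 2.5 and UPM+TZ 5. The control group is labelled only as a normal control, and the sources used here do not say whether it or the UPM group received a vehicle. There was 1 library per group, so a comparison of 2 groups compares 2 libraries and has no replicate check.

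Fatty acids enter macrophages and microglia through the scavenger receptor CD36 or after release from lipoproteins by lipoprotein lipase, and are carried in the cytosol by fatty acid binding proteins. They are then stored as triglyceride in lipid droplets, which perilipins coat, or oxidised in mitochondria and peroxisomes. Peroxisome proliferator-activated receptors (PPARs) are fatty acid-activated nuclear receptors that pair with RXR and switch on many of these genes, Fabp4, Plin2, Cd36, Lpl and Cpt1a among them.

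Library totals ran from 6829720 to 7696168 counts, and a count of 0 in a library allows up to 3 counts, or 0.390 to 0.439 counts per 1000000 (CPM). Of 14 microglia and macrophage markers, 12 had a mean of at least 10 CPM, with summed levels of 3849 CPM in UPM, 3905 in UPM+TZ 1.25, 4267 in UPM+TZ 2.5 and 4204 in UPM+TZ 5, against 4156 in the control. The homeostatic markers P2ry12 (0.659 to 1.60 CPM) and Tmem119 (3.03 to 7.41 CPM) were low in every library. Of 6 adipocyte markers, Cfd, Lep, Plin1 and Cidec were listed at 0 in all 5 libraries, and the list summed to 0 to 1.17 CPM. Astrocyte, neuron, oligodendrocyte and fibroblast lists summed to at most 6.15 CPM, and the endothelial list to 14.1 to 16.7 CPM, mostly from Kdr. Small nucleolar RNAs took 0.108% of counts in UPM, 0.0995% in UPM+TZ 1.25, 0.0645% in UPM+TZ 2.5 and 0.0458% in UPM+TZ 5, against 0.0854% in the control. Mitochondrial ribosomal RNA took 8.80%, 8.64%, 7.0% and 7.06% in the 4 UPM libraries in the same order of dose, against 7.94% in the control. Both shares were lower in UPM+TZ 2.5 and UPM+TZ 5 than in the other 3 libraries, and their part in the results on dose was not tested.

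RefSeq promoter windows (GRCm38.p6, 250 bases before to 50 bases after a transcript start) matched 7 of the 10 genes, with 10 starts, but not Fabp4, Fabp5 or Lpl. The windows of Plin2, of the downstream of the 2 Hilpda starts and of Plin3 are shown because these 3 droplet genes differed most between UPM and the control among the genes matched above 30 CPM, the first 2 lower in UPM and Plin3 higher. Capitals mark, on either strand, AGGTCA, the hexamer that nuclear receptors including PPAR and RXR bind, and ACGTG, a core of the hypoxia response element.
Plin2 (chr4:86670010-86670309, minus strand): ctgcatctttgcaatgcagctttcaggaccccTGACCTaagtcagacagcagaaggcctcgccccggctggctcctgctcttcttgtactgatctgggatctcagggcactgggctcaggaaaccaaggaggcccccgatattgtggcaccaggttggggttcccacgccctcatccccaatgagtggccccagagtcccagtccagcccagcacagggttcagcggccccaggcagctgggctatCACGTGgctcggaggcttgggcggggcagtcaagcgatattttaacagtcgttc
Hilpda (chr6:29272376-29272675, plus strand): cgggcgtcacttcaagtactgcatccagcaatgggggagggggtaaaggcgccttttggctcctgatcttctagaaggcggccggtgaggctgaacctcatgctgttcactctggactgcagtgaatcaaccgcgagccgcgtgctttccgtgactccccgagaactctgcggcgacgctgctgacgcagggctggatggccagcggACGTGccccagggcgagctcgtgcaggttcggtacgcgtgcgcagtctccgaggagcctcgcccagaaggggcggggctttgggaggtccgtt
Plin3 (chr17:56290462-56290761, minus strand): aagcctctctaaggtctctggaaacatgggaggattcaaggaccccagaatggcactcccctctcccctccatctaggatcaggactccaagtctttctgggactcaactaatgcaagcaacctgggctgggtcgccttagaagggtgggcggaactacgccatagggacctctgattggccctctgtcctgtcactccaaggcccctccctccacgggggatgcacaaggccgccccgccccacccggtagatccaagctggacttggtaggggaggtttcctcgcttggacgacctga
The Plin2 window held AGGTCA on its reverse strand, 218 bases before the start, and ACGTG on both strands as the overlapping palindrome CACGTG, from 4 bases before it. The Hilpda window held ACGTG 43 bases before the start, and that of Plin3 held neither. Over all 32851 windows in the table, AGGTCA was present in 16.3% and ACGTG in 19.6%. AGGTCA was found in 5 of the 10 windows matched here, of Cd36, Cpt1a, Plin2 and Pparg (2 of its 3 starts). The spaced repeat AGGTCANAGGTCA was in 0 of the 10 and in 0.0396% of all windows. A match describes the letters of a window and not a bound site.

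Fabp4 rose with TZ dose in UPM-exposed cells. It had 332 counts (43.1 CPM, 95% counting interval 38.6 to 48.0) in UPM, 380 (52.4 CPM, 47.3 to 57.9) in UPM+TZ 1.25, 481 (70.4 CPM, 64.3 to 77.0) in UPM+TZ 2.5 and 596 (86.9 CPM, 80.1 to 94.2) in UPM+TZ 5, against 435 (57.4 CPM, 52.1 to 63.0) in the control. The level was higher at each step of dose, and the control lay between UPM+TZ 1.25 and UPM+TZ 2.5. Between neighbours in this order the interval of the fold excluded 1 in 3 of 4 cases, the exception being the control and UPM+TZ 1.25. Since this is bulk RNA, more cells with the transcript and more transcript per cell cannot be told apart.

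**Figure D1:**
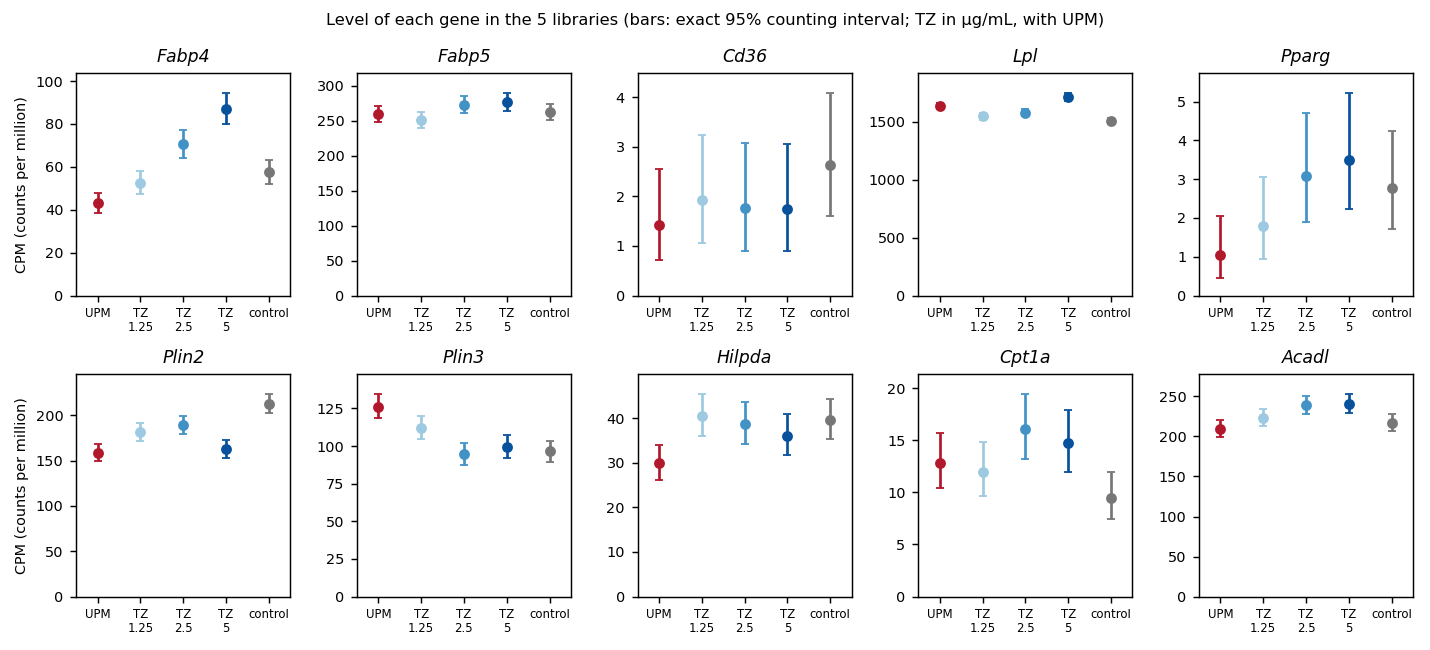
Level of each of the 10 genes in CPM (vertical axes, starting at 0) in the UPM, UPM+TZ 1.25, UPM+TZ 2.5, UPM+TZ 5 and control libraries, 1 library each, with exact 95% Poisson intervals. Fabp4 climbs from left to right over the 4 UPM libraries, while Fabp5, Lpl and Acadl are nearly level and the intervals of Cd36 and Pparg are wide.

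Folds between 2 libraries were taken after TMM scaling, and a call needed a difference of 1.5-fold or more, higher or lower, a 95% counting interval that excluded 1 and a mean of at least 10 CPM over the pair. Fabp4 was called higher in UPM+TZ 5 than in UPM at 1.99-fold (1.74 to 2.29) and in UPM+TZ 2.5 than in UPM at 1.60-fold (1.39 to 1.85). In UPM+TZ 1.25 against UPM it was 1.21-fold (1.04 to 1.41), under the limit. UPM itself was 0.749-fold (0.648 to 0.866) of the control, also under the limit. Relative to the control, UPM+TZ 1.25 was 0.910-fold (0.791 to 1.05), UPM+TZ 2.5 1.20-fold (1.05 to 1.37) and UPM+TZ 5 1.49-fold (1.32 to 1.69). The value for UPM+TZ 5 against the control was just under the limit, and became 1.52-fold and called when libraries were scaled by their totals alone.

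Dose was tested as a number in 1 edgeR quasi-likelihood fit over all 5 libraries and 12381 genes, with a UPM term beside it. The slope of Fabp4 was 0.20 log2 per µg/mL (SE 0.03, Benjamini-Hochberg adjusted p = 1.56e-05), a fitted 1.97-fold (95% interval 1.59 to 2.46) between 0 and 5 µg/mL, with each of the 3 TZ libraries above UPM. It ranked 30 by p-value among all genes, of which 5.7% were called in either direction and 2.79% rose. With each library left out in turn and under DESeq2 or other settings, 9 alternatives in all, the adjusted p ran from 2.65e-07 to 0.00643 and Fabp4 was called in each. Without the UPM library the slope was 0.18 (adjusted p = 0.00286) and without UPM+TZ 5 it was 0.27 (adjusted p = 0.00643, edgeR). The fit leaves 2 residual degrees of freedom, so its p-values rest mainly on spread shared across genes. That spread is departure from a straight line on dose, and not variation between replicates. The UPM term of Fabp4 was −0.36 log2 (SE 0.15, adjusted p = 0.564, edgeR) and was not called.

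Fabp5, which encodes a second fatty acid carrier related to FABP4 and lies on the same chromosome, stayed within a narrow band. It had 1993 counts (259 CPM) in UPM, 1821 (251 CPM) in UPM+TZ 1.25, 1864 (273 CPM) in UPM+TZ 2.5 and 1893 (276 CPM) in UPM+TZ 5, against 1984 (262 CPM) in the control. Of its 10 pairs of libraries, only UPM+TZ 5 over UPM+TZ 1.25 had an interval that excluded 1, at 1.09-fold (1.02 to 1.16). Its dose slope was 0.02 log2 per µg/mL (SE 0.02, adjusted p = 0.769, edgeR), and the 95% interval of the fitted fold between 0 and 5 µg/mL was 0.907 to 1.24. One pseudogene carries its name in the annotation, and the files do not say how shared reads were counted.

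The 2 genes of fatty acid entry differed in how far they could be resolved. Cd36 had 11 counts (1.43 CPM) in UPM, 14 (1.93 CPM) in UPM+TZ 1.25, 12 (1.76 CPM) in UPM+TZ 2.5 and 12 (1.75 CPM) in UPM+TZ 5, against 20 (2.64 CPM) in the control. None of its 10 pairs of libraries had an interval that excluded 1, and UPM was 0.540-fold (0.234 to 1.18) of the control, an interval that holds both no difference and a much lower level in UPM. Lpl, encoding the lipase that frees fatty acids from lipoproteins, had 12612 counts (1639 CPM) in UPM, 11239 (1550 CPM) in UPM+TZ 1.25, 10789 (1580 CPM) in UPM+TZ 2.5 and 11760 (1715 CPM) in UPM+TZ 5, against 11455 (1511 CPM) in the control. Its counts gave narrow intervals, and the difference between its highest and lowest library was 1.12-fold (1.09 to 1.15), UPM+TZ 5 over the control. Its order did not follow dose, with UPM+TZ 1.25 and UPM+TZ 2.5 both below UPM at 0.945-fold and UPM+TZ 5 above it at 1.03-fold (1.01 to 1.06). The Lpl slope was 0.01 log2 per µg/mL (SE 0.02, adjusted p = 0.843, edgeR).

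Pparg, the gene of PPAR gamma, had few counts, and an annotated gene on the opposite strand overlaps it. There were 8 (1.04 CPM, 0.449 to 2.05) in UPM, 13 (1.79 CPM, 0.955 to 3.07) in UPM+TZ 1.25, 21 (3.07 CPM, 1.90 to 4.70) in UPM+TZ 2.5 and 24 (3.50 CPM, 2.24 to 5.21) in UPM+TZ 5, against 21 (2.77 CPM, 1.71 to 4.23) in the control. Its order of libraries was that of Fabp4, with UPM lowest and UPM+TZ 5 highest, but no 2 neighbours in it differed beyond counting error. UPM+TZ 5 was 3.33-fold (1.45 to 8.57) and UPM+TZ 2.5 2.90-fold (1.23 to 7.57) of UPM, and UPM was 0.374-fold (0.143 to 0.879) of the control. All 3 values share the UPM library with its 8 counts. The slope of 0.31 log2 per µg/mL (SE 0.15, unadjusted p = 0.0426, adjusted p = 0.261, edgeR) was not called, and without the UPM library it was 0.21 (adjusted p = 0.750) and without UPM+TZ 5 0.61 (adjusted p = 0.479).

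**Figure D2:**
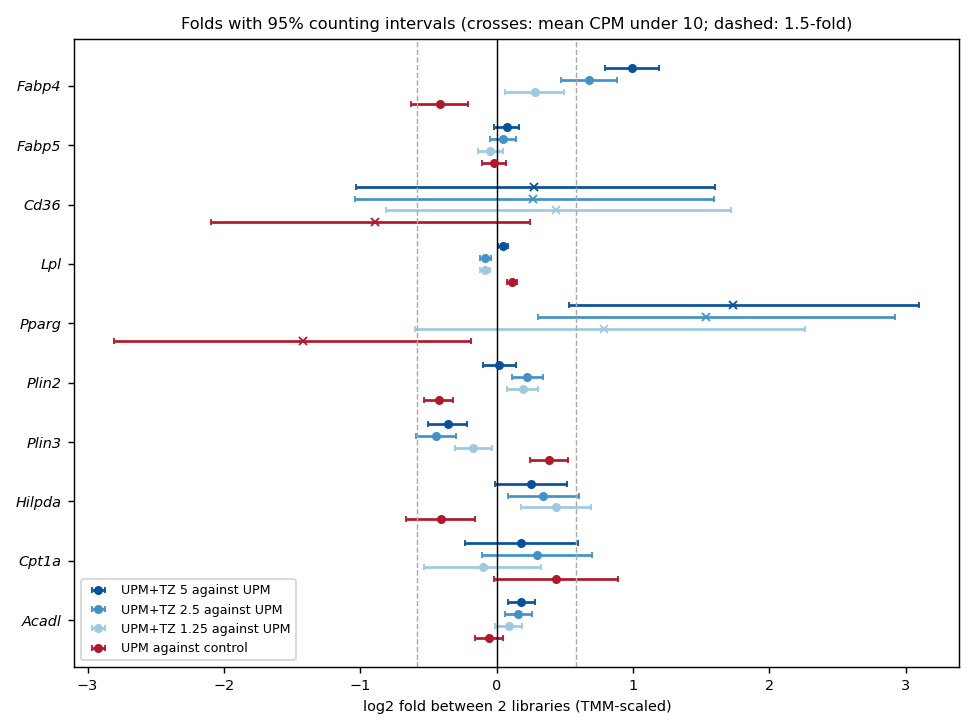
Log2 fold between 2 libraries (horizontal axis) for each gene with its 95% counting interval, for UPM+TZ 5, UPM+TZ 2.5 and UPM+TZ 1.25 against UPM and for UPM against the control. Crosses mark pairs with a mean under 10 CPM and dashed lines a fold of 1.5. Fabp4 passes the line at UPM+TZ 2.5 and UPM+TZ 5, Plin2 and Hilpda stand left of 0 and Plin3 right of 0 in UPM against the control.

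The 3 lipid droplet genes differed by less than 1.5-fold between any 2 of the 5 libraries. Plin2, whose protein is the main droplet coat of macrophages, had 1222 counts (159 CPM, 150 to 168) in UPM, 1317 (182 CPM, 172 to 192) in UPM+TZ 1.25, 1292 (189 CPM, 179 to 200) in UPM+TZ 2.5 and 1117 (163 CPM, 154 to 173) in UPM+TZ 5, against 1612 (213 CPM, 202 to 223) in the control. The control stood above all 4 UPM libraries, and UPM and UPM+TZ 5 were lowest and differed by less than counting error. Against the control the folds were 0.744 (0.690 to 0.802) for UPM, 0.851 (0.790 to 0.915) for UPM+TZ 1.25, 0.869 (0.807 to 0.936) for UPM+TZ 2.5 and 0.755 (0.699 to 0.815) for UPM+TZ 5. The UPM term of the fit was −0.30 log2 (SE 0.11, unadjusted p = 0.0100, adjusted p = 0.464, edgeR) and was not called. It was called without the UPM+TZ 5 library (−0.40, adjusted p = 0.0493), and was −0.12 (adjusted p = 0.989) without the UPM library. The dose slope of Plin2 was −0.01 log2 per µg/mL (SE 0.03, adjusted p = 0.936, edgeR).

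Hilpda, encoding a small droplet protein that inhibits triglyceride lipolysis and is induced by hypoxia, also had its lowest level in UPM. It had 230 counts (29.9 CPM, 26.1 to 34.0) in UPM, 293 (40.4 CPM, 35.9 to 45.3) in UPM+TZ 1.25, 264 (38.7 CPM, 34.1 to 43.6) in UPM+TZ 2.5 and 247 (36.0 CPM, 31.7 to 40.8) in UPM+TZ 5, against 300 (39.6 CPM, 35.2 to 44.3) in the control. UPM was 0.753-fold (0.631 to 0.897) of the control, and UPM+TZ 1.25 was 1.35-fold (1.13 to 1.61) and UPM+TZ 2.5 1.27-fold (1.06 to 1.52) of UPM, while UPM+TZ 5 was 1.19-fold (0.992 to 1.43) of it. Among the TZ libraries the level was highest at the lowest dose, although no 2 of the 3 differed beyond counting error. Its dose slope was 0.02 log2 per µg/mL (SE 0.04, adjusted p = 0.807, edgeR).

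Plin3, a perilipin that moves from the cytosol onto new droplets, ran the other way. It had 971 counts (126 CPM, 118 to 134) in UPM, 814 (112 CPM, 105 to 120) in UPM+TZ 1.25, 647 (94.7 CPM, 87.6 to 102) in UPM+TZ 2.5 and 683 (99.6 CPM, 92.3 to 107) in UPM+TZ 5, against 731 (96.4 CPM, 89.5 to 104) in the control. UPM was highest, and UPM+TZ 2.5, UPM+TZ 5 and the control did not differ beyond counting error. UPM was 1.30-fold (1.18 to 1.44) of the control, and UPM+TZ 2.5 was 0.736-fold (0.665 to 0.814) and UPM+TZ 5 0.781-fold (0.707 to 0.862) of UPM. The dose slope of −0.08 log2 per µg/mL (SE 0.03, unadjusted p = 0.00680, adjusted p = 0.0869, edgeR) was not called. It was called with dose as a rank (adjusted p = 0.0283) and without UPM+TZ 5 (−0.18, adjusted p = 0.0348), and was −0.04 without UPM (adjusted p = 0.716).

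Of the 2 oxidation genes, Cpt1a encodes the enzyme that controls entry of long-chain fatty acids into mitochondria. It had 99 counts (12.9 CPM, 10.5 to 15.7) in UPM, 87 (12 CPM, 9.61 to 14.8) in UPM+TZ 1.25, 110 (16.1 CPM, 13.2 to 19.4) in UPM+TZ 2.5 and 101 (14.7 CPM, 12 to 17.9) in UPM+TZ 5, against 72 (9.50 CPM, 7.43 to 12) in the control. The control was lowest, and Cpt1a was called higher than it in UPM+TZ 2.5 at 1.66-fold (1.22 to 2.26) and in UPM+TZ 5 at 1.53-fold (1.12 to 2.10). Both calls share the control, whose own level was under 10 CPM, and neither passed a mean of 30 CPM. UPM was 1.35-fold (0.987 to 1.86) of the control, and no TZ library differed from UPM beyond counting error.

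Acadl, the long-chain acyl-CoA dehydrogenase gene, had 1615 counts (210 CPM) in UPM, 1620 (223 CPM) in UPM+TZ 1.25, 1633 (239 CPM) in UPM+TZ 2.5 and 1650 (241 CPM) in UPM+TZ 5, against 1648 (217 CPM) in the control. UPM+TZ 5 was 1.13-fold (1.06 to 1.22) and UPM+TZ 2.5 1.12-fold (1.04 to 1.20) of UPM, a small difference in the direction of Fabp4. The slopes of Acadl (0.03 log2 per µg/mL, SE 0.02, adjusted p = 0.522) and Cpt1a (0.05, SE 0.06, adjusted p = 0.745) were not called by edgeR. Without UPM+TZ 5 they were 0.06 for Acadl and 0.12 for Cpt1a, and without UPM that of Acadl was 0.02, also not called.

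**Figure D3:**
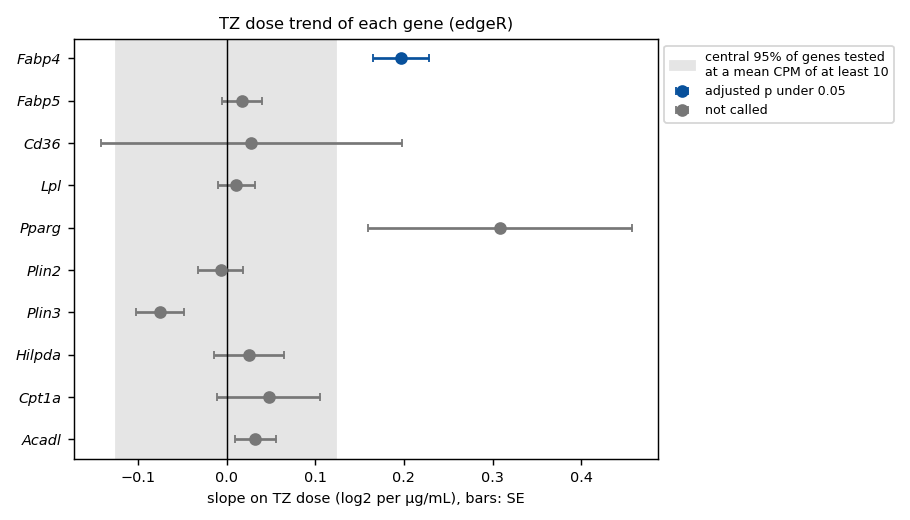
Slope on TZ dose in log2 per µg/mL (horizontal axis) of each gene from the edgeR fit, with SE bars. Grey shading covers the central 95% of 8341 genes tested at a mean of at least 10 CPM, −0.13 to 0.12, and over all 12381 genes tested that range was −0.23 to 0.20. Fabp4 is the 1 gene called and lies right of the shading and within the wider range, while Pparg, under 10 CPM and so outside the genes shaded, has a wide bar.

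As a set, few of the 10 genes passed the rules, and the shares called among all genes were also small. Pparg and Cd36 were under 10 CPM in every pair, which left 8 measured members. In UPM against the control 0 of 8 were called, and 3.08% of 8282 genes were. The median log2 fold of the 8 was −0.04, and −0.00470 over all genes measured. In UPM+TZ 1.25 against UPM 0 of 8 were called, beside 2.22% of all genes. In UPM+TZ 2.5 against UPM 1 of 8 was called higher, Fabp4, beside 2.67% of all genes higher and 4.4% in either direction, with a median of 0.19 against −0.00533 over all. In UPM+TZ 5 against UPM Fabp4 was again the 1 of 8 called higher, beside 3.78% of all genes higher and 6.57% in either direction, with a median of 0.13 against 0.00462. Against the control, 0 of 8 were called in UPM+TZ 1.25 (2.38% of all genes), and Cpt1a, at 9.50 CPM in the control and past the limit of 10 CPM only through the TZ libraries, was the 1 called in UPM+TZ 2.5 (2.21% of all genes higher, 3.62% in either direction) and in UPM+TZ 5 (3.55% higher, 6.06% in either direction). These comparisons share the UPM or the control library and are not independent. In the dose fit 1 of 10 rose and 0 fell, beside 5.7% of all genes called (2.79% rose and 2.91% fell). Of the 10, 3 had an unadjusted p under 0.05, as did 17.6% of all genes tested. By DESeq2 1 of the 10 was called and 4 received no adjusted p, and 300 genes were called in all. The UPM term called 0 of 10 in edgeR and 0 in DESeq2, beside 0.17% of all genes in edgeR. In edgeR 3 of the 10 had an unadjusted p under 0.05 for this term, as did 7.84% of all genes.

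The receptors that pair with PPARs and the other PPAR target genes were described from lists. Of 13 tested receptors and cofactors 1 rose with dose, Rxra, and 0 fell, beside 2.79% of all genes that rose and 2.91% that fell. Their median slope was 0.00407 log2 per µg/mL, against −0.00116 over all genes. Rxra, encoding the RXR alpha partner of PPARs, had 40.9 CPM in UPM, 47.0 in UPM+TZ 1.25, 54.6 in UPM+TZ 2.5 and 62.3 in UPM+TZ 5, against 45.4 in the control. Its slope was 0.11 (SE 0.03, adjusted p = 0.0285, edgeR), called in 6 of 9 alternatives and lost with DESeq2 and without UPM or UPM+TZ 5. Of 11 tested target genes Ucp2 rose and Txnip fell, beside 5.7% of all genes called in either direction, with a median slope of 0.04. Ucp2, encoding a mitochondrial uncoupling protein, had 39.5 CPM in UPM, 45.1 in UPM+TZ 1.25, 61.8 in UPM+TZ 2.5 and 70.0 in UPM+TZ 5, against 47.5 in the control. The slope of Ucp2 was 0.16 (SE 0.03, adjusted p = 0.000731, edgeR), it was called in all 9 alternatives (adjusted p up to 0.0444), and it was called higher than UPM at 1.53-fold (1.32 to 1.78) in UPM+TZ 2.5 and 1.75-fold (1.51 to 2.03) in UPM+TZ 5. Txnip, a thioredoxin-binding regulator of glucose uptake, fell by 0.10 log2 per µg/mL (SE 0.03, adjusted p = 0.0111, edgeR), and was not called with DESeq2 or without UPM. The other 11 of the 22 targets were too low to be tested, 6 of them listed at 0 in all libraries.

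The remaining lipid lists had few calls on dose. Of 8 tested genes of peroxisomal fatty acid oxidation 1 fell with dose, Crot, and 0 rose. Among all genes tested 2.91% fell and 2.79% rose. Crot, which attaches carnitine to shortened fatty acids, had 36.1 CPM in UPM, 25.9 in UPM+TZ 1.25, 20.9 in UPM+TZ 2.5 and 20.4 in UPM+TZ 5, against 17.0 in the control. UPM stood above the other 4 libraries, and Crot was called higher in UPM than in the control at 2.12-fold (1.71 to 2.63) and lower in UPM+TZ 5 than in UPM at 0.559-fold. The UPM term of Crot was 0.92 log2 (SE 0.21, edgeR) and was called, beside 0.17% of all genes. It was not called in DESeq2 nor without UPM. Its slope was −0.17 (SE 0.04, adjusted p = 0.0111, edgeR). The call was lost without UPM (adjusted p = 0.625), and DESeq2 gave no adjusted p. Of 13 tested genes of triglyceride synthesis 1 fell, Agpat2, and 0 rose, beside the same 2.91% and 2.79% of all genes. The Agpat2 slope was −0.10 (SE 0.03, adjusted p = 0.0294, edgeR). It was called in 5 of 9 alternatives, not in DESeq2 nor without UPM, UPM+TZ 2.5 or UPM+TZ 5. Among 18 tested genes of mitochondrial oxidation, 7 of droplet coat and assembly and 5 of lipolysis, 0 were called by edgeR or DESeq2, with 3, 1 and 1 at an unadjusted p under 0.05, beside 17.6% of all genes. Slopes ran from that of Spart (−0.08) to that of Fitm2 (0.07) in the droplet list and from that of Acads (−0.05) to that of Acad9 (0.14) in the mitochondrial list. The lowest slope of the lipolysis list was that of Pnpla2, the droplet triglyceride lipase, at −0.10 (SE 0.03, adjusted p = 0.0503, edgeR). The droplet coat gene Plin1 was listed at 0 in all 5 libraries, and Plin4 and Plin5 had 1 count each in UPM+TZ 1.25 and 0 elsewhere.

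Between pairs of libraries, genes of these lists were called 22 times over the 7 pairs by the rule used for the members. Among all genes measured, the share called in either direction ran from 2.22% in UPM+TZ 1.25 against UPM to 6.57% in UPM+TZ 5 against UPM. The 22 calls were not divided by the number of list genes measured, so they have no share of their own to set beside these. Whether the lists exceed the share of all genes was not tested. The single calls below are a description and not a result on lipid genes as a group. Agpat4, encoding an acyltransferase of the same family as Agpat2, had 11.4 CPM in UPM, 18.2 in UPM+TZ 1.25, 18.2 in UPM+TZ 2.5 and 20.7 in UPM+TZ 5, against 15.7 in the control. It was called higher than UPM at all 3 doses, at 1.59-fold (1.21 to 2.11), 1.56-fold (1.17 to 2.07) and 1.79-fold (1.36 to 2.36) from the lowest dose up, and its slope was 0.13 (SE 0.05, adjusted p = 0.148, edgeR). Also against UPM, Rxra was called higher in UPM+TZ 5 at 1.504-fold (1.30 to 1.75), barely past the limit of 1.5. Acad9 was called higher than UPM in UPM+TZ 5 at 1.57-fold (1.14 to 2.16). Txnip, at 0.635-fold (0.578 to 0.697), and Crot, at 0.568-fold (0.461 to 0.698), were called lower than UPM in UPM+TZ 2.5. The calls against the control were all higher. In the mitochondrial list Decr1, a reductase for unsaturated fatty acids, was called in UPM+TZ 2.5 (1.57-fold, 1.22 to 2.03) and UPM+TZ 5 (1.53-fold, 1.18 to 1.98). In UPM+TZ 5 the carnitine carrier gene Slc25a20 (1.52-fold, 1.16 to 2.0) and Acad9 (1.52-fold, 1.11 to 2.09) were called as well. The peroxisomal oxidase gene Acox3 was called in UPM+TZ 2.5 (1.69-fold, 1.36 to 2.09) and UPM+TZ 5 (1.63-fold, 1.32 to 2.03), and Crot in UPM+TZ 1.25 (1.52-fold, 1.21 to 1.91). Gpam, encoding an enzyme of the first step of triglyceride synthesis, was called in UPM+TZ 1.25 (1.57-fold, 1.12 to 2.21) and UPM+TZ 2.5 (1.53-fold, 1.09 to 2.16), and the lipase maturation gene Lmf1 in UPM+TZ 1.25 (1.86-fold, 1.38 to 2.53). Gpam and Lmf1 were under 10 CPM in the control, Acad9 in both UPM and the control, and they passed the limit through the library where they were higher.

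**Figure D4:**
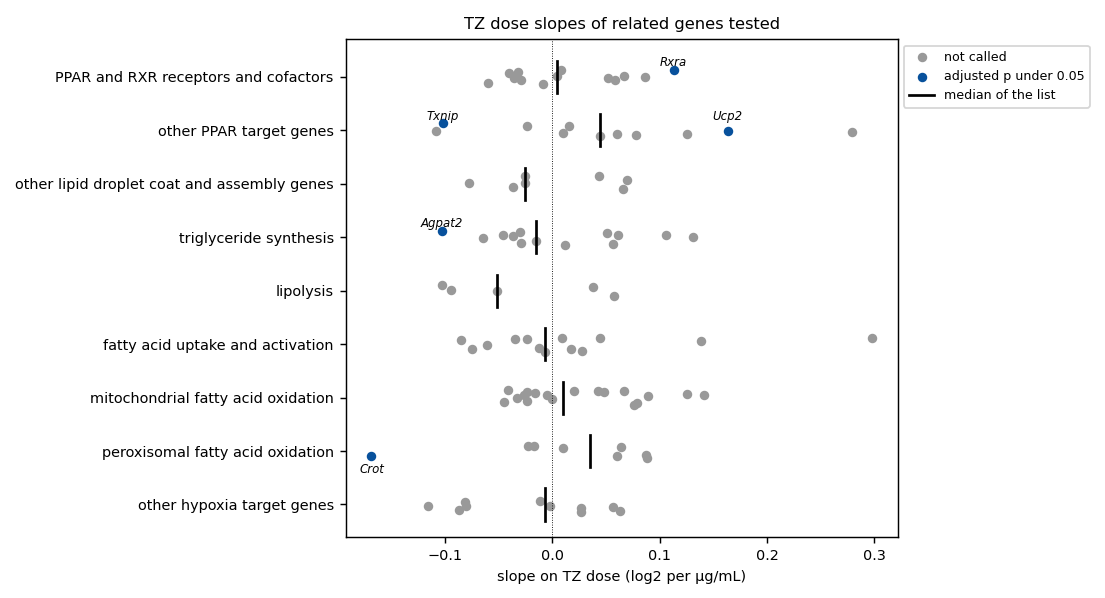
Slope on TZ dose in log2 per µg/mL (horizontal axis) of each tested gene of 9 related lists, 1 point per gene, with the median of each list as a black bar. Blue points have an adjusted p under 0.05 in edgeR, and Rxra and Ucp2 lie right of 0 while Txnip, Agpat2 and Crot lie left of it.

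The genes whose pattern across the 5 libraries was closest to that of Fabp4 were taken from genes at a mean of at least 10 CPM. There were 8340 of these, and 8107 after leaving out predicted genes, from which the closest were taken. Likeness was the root mean square difference of log2(TMM-scaled CPM + 1) values, each gene centred on its own mean over the 5 libraries. The closest were Nek1 (0.0458), Ddx10 (0.0496), Ucp2 (0.0640), Lrpprc (0.0679) and Atxn7 (0.0683). The median over the 8340 genes, predicted genes included, was 0.351. NEK1 is a kinase, DDX10 an RNA helicase, LRPPRC a stabiliser of mitochondrial mRNA and ATXN7 a subunit of a chromatin-modifying complex. Ucp2 is the 1 PPAR target of the list among these 5, which were picked for their likeness, and a PPAR link to the pattern was not tested. Of the other members, Acadl was nearest to Fabp4 at 0.273, then Fabp5 (0.302), Cpt1a (0.305), Hilpda (0.315), Lpl (0.321), Plin2 (0.371) and Plin3 (0.474).

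**Figure D5:**
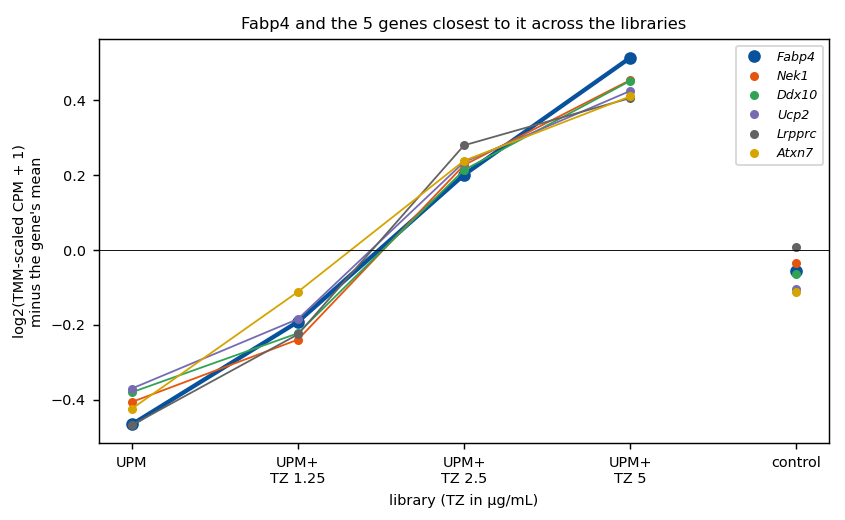
Centred log2(TMM-scaled CPM + 1) of Fabp4 and the 5 genes closest to it (vertical axis) in the 5 libraries, lines joining the 4 UPM libraries by TZ dose. All 6 genes are lowest in UPM and highest in UPM+TZ 5, with the control between. The 5 were chosen by their likeness to Fabp4 over these same libraries, so a shared order comes with the choice.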

How the data were processed

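Messenger RNA of BV-2 cells was measured by QuantSeq 3′-end sequencing, with single-end reads of 75 bases, per the labels' protocols. Each deposited file holds 1 library as unnormalised counts by gene symbol. STAR, edgeR and the build GRCm39 are named, with no version or role, per the submitters' processing notes. The counting program, annotation and strand setting, not given in the sources used here, could affect overlapping or paralogous genes. The labels name no molecular identifiers, so intervals cover counting error only.

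CPM are counts per 1000000 of the library total, with exact Poisson 95% intervals. Folds use TMM factors over all 5 libraries and exact conditional binomial (Clopper-Pearson) 95% intervals. Dose and UPM were tested with edgeR 4.0.16 (limma 3.58.1, R 4.3.3) after filterByExpr, by the quasi-likelihood test with Benjamini-Hochberg adjusted p under 0.05, with 63.4 prior degrees of freedom. The single control library has no spread of its own, and that of the UPM libraries stands in for it. The SE was derived from the estimate and its F statistic. Both procedures were checked on simulated data, the folds with counting error alone and the dose test with a fixed spread. Real variation between libraries was not simulated, so these checks do not cover it.

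The members and lists were chosen with earlier results of these data known. All 10 members are named, and of the lists genes called in a pair or on dose. Some with the highest or lowest slope of a list are named as well. Plin1, Plin4, Plin5 and Fabp3 are named outside this rule. The 131 list names were all found, and 1 further gene is not reported here. Sequences are from RefSeq, GRCm38.p6, and no coordinates of the files' build are given. Alternatives were DESeq2 1.42.0, other scalings, filters, thresholds and doses as ranks, and each library left out.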

Additional observations from a re-analysis of the deposited data

How the results depend on the processing

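The 4 calls of members over the 7 pairs of libraries were also 4 with DESeq2 size factors and became 5 with total counts. They became 0 at a fold of at least 2, 7 at a mean of at least 1 CPM, where Pparg was added in 3 pairs, and 2 at a mean of at least 30 CPM. The 22 calls of related genes became 1, 42 and 5 under the same 3 settings. The shares of all genes called under these settings were not computed, so these counts have no background beside them. The dose trend called 706 genes, against 300 with DESeq2, and 202 (without UPM) to 678 (without the control) with 1 library left out, 370 without UPM+TZ 5. The UPM term called 21 genes, against 6 with DESeq2, 34 with no filter, and 24 (without UPM) to 83 (without UPM+TZ 5) with 1 library left out. Of the values of single members under the alternatives, 442 kept their side of the threshold and, for slopes and UPM terms, their sign. Another 7 were called only under the alternative, and 6 were no longer called. The other 9, all slopes or UPM terms, changed sign, none of them called in either setting. The 442 is no measure of stability, since settings that change only a threshold repeat the same fold. It also holds 4 dose slopes and 2 UPM terms that received no adjusted p in DESeq2. With 1 library left out, the dose slope ran from −0.0549 (without UPM) to 0.0879 (without UPM+TZ 5) for Plin2, −0.0402 (without UPM) to 0.103 (without UPM+TZ 5) for Cd36, −0.0507 (without UPM) to 0.133 (without UPM+TZ 5) for Hilpda and −0.0342 (without UPM+TZ 5) to 0.0333 (without UPM) for Lpl. The Plin2 slope was 0.00579 with dose as a rank. The UPM term ran from −0.0256 (without UPM) to 0.101 (without UPM+TZ 5) for Lpl, −0.339 (without UPM+TZ 1.25) to 0.0785 (without UPM) for Hilpda and −0.0505 (without UPM+TZ 5) to 0.0317 (without UPM) for Acadl. The cause of these moves was not tested. No paired analysis was possible because each group has 1 library and the labels give no replicate numbers. Depth limits Pparg and Cd36, with 8 to 24 and 11 to 20 counts in a library.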

Other observations

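Hypoxia target genes, a group to which Hilpda belongs, showed no calls on dose. Of 10 tested members of the list without Hilpda, edgeR called 0 (3 had an unadjusted p under 0.05, beside 17.6% of all genes tested) and DESeq2 0, with a median slope of −0.00691 log2 per µg/mL. Bnip3, a mitochondrial autophagy receptor, had 11.8 CPM in UPM, 7.03 in UPM+TZ 1.25, 9.22 in UPM+TZ 2.5 and 7.29 in UPM+TZ 5, against 5.93 in the control, and its slope was −0.12 (SE 0.07, adjusted p = 0.439, edgeR). Slc2a1, the main glucose transporter gene of many cells, was called higher in UPM+TZ 2.5 than in the control at 1.55-fold (1.29 to 1.86). In this pair 2.21% of all genes measured were called higher.

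Of 13 tested genes of fatty acid uptake and activation edgeR called 0 on dose (2 at an unadjusted p under 0.05, beside 17.6% of all genes tested) and DESeq2 0. The highest slope was that of Fabp7, the brain fatty acid binding protein gene, with 12 counts in UPM, 28 in UPM+TZ 1.25, 29 in UPM+TZ 2.5 and 41 in UPM+TZ 5, against 17 in the control (0.30 log2 per µg/mL, SE 0.11, adjusted p = 0.119, edgeR). Fabp3, the heart form, had 54.8 CPM in UPM, 48.5 in UPM+TZ 1.25, 61.5 in UPM+TZ 2.5 and 62.0 in UPM+TZ 5, against 58.3 in the control, and was chosen after its values were seen. The lowest slope of the list was that of Slc27a4, at −0.09 log2 per µg/mL.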
